A study of Arabidopsis thaliana with 9 samples.

Results

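This is an account of 44 genes of DNA replication and S phase in Arabidopsis root tips, out of 33560 gene identifiers measured. The genes were chosen by function, as an explicit list of gene identifiers: the subunits and loaders of the MCM helicase, the origin recognition complex (ORC), E2F and DP transcription factors, S phase cyclins of the CYCA3 class, replication fork proteins, enzymes of deoxynucleotide supply, chromatin assembly and maintenance of DNA methylation. All 44 were found in the table and none was listed at 0 in any library. RNA sequencing was done on root tips of 3 genotypes, with 3 libraries each, from seedlings 5 days old after 2 days of cold, grown upright with 1% sucrose in 16 h light and 8 h dark. The seu-3 plants carry a mutant allele of SEU (SEUSS), a transcriptional co-regulator. The wox5-1 plants carry a mutant allele of WOX5, a homeobox factor of the quiescent centre, the rarely dividing cells of the root stem cell niche. Col-0 is the wild type. The tissue is given as about 1 mm of root tip in the series description and as 3 mm of root by the protocol for extraction.

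Eukaryotic chromosomes are copied once per cell cycle. ORC marks origins, CDC6 and CDT1 load the ring of MCM2 to MCM7 onto DNA before S phase, and CDC45, MCM10 and other factors then turn that ring into a working helicase. Polymerases, the sliding clamp PCNA and DNA ligase copy the opened strands, while chromatin assembly factors and methyltransferases restore nucleosomes and DNA methylation behind the fork. In plants many of these genes are switched on at the start of S phase by E2F factors with DP partners, which bind short elements such as TTTCCCGC. In the root most of the cells that replicate DNA to divide lie in the meristem, just behind the tip.

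The E2F-type elements TTTCCCGC, TTTGGCGC, TTTCGCGC and TTTGCCGC were searched on both strands from 250 bases before to 50 bases after each annotated gene start in the TAIR10.1 assembly from RefSeq. They were present in 17 of the 44 genes (38.6%), against 483 of 27443 protein-coding nuclear genes (1.76%). These shares are a description, since a match is a sequence and not a measured binding site, and an absent match says only that these letters are not in the window. MCM2 to MCM6 each had 1 element, and MCM7 had none. By class the share was 5 of 6 helicase genes, 4 of 7 ORC genes, 1 of 4 loading genes, 3 of 8 fork genes, 1 of 4 nucleotide genes, 2 of 3 chromatin assembly genes and 1 of 3 methylation genes. No element was found in the 3 helicase activation genes, the 4 E2F and DP genes or the 2 cyclins. TTTCCCGC was the most frequent, in 13 genes, then TTTGGCGC in 5 and TTTCGCGC in 1, while TTTGCCGC was in 0 of the 44. Of the 19 elements 15 lay before the gene start, 11 of them within 60 bases of it. The stretches around some of these elements are shown because such elements were more frequent among the 44 genes than among protein-coding genes at large. Each runs 5′ to 3′ on the strand of its gene, with the element or its reverse complement in capitals.
MCM2, chr1:16970184-16970213, plus strand: caaattggcgccaataTTTCCCGCctaatc
MCM5, chr2:3527501-3527535, minus strand: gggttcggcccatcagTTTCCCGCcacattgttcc
MCM6, chr5:18010690-18010729, minus strand: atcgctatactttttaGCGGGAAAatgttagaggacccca
MCM4, chr2:7130741-7130780, minus strand: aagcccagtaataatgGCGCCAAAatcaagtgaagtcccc
ORC3, chr5:5474300-5474339, plus strand: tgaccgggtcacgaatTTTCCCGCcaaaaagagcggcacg
ORC1A, chr4:8422144-8422172, plus strand: attcttcgtgcaaacaTTTCCCGCcaaat
ICU2, chr5:26776886-26776925, plus strand: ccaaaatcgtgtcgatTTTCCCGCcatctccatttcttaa
FAS2, chr5:25833139-25833164, plus strand: gacacggagactactaTTTCGCGCcc
The elements of MCM2, MCM5 and ORC1A end 7, 12 and 6 bases before the gene start. ICU2 and FAS1 each hold a pair of elements, 1 TTTGGCGC and 1 TTTCCCGC. FAS2 was the only one of the 44 genes with TTTCGCGC.

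Expression is given as FPKM, fragments scaled to transcript length and to the mapped fragments of the library, as deposited by the authors. Values summed to between 794809 and 839181 FPKM per library, and steps between low values gave a very rough estimate of the depth. By that estimate the fewest fragments behind a value of the 44 genes were about 5.6, for AT1G07270 in seu-3 replicate 3, so differences between the weakest genes carry a large counting error. The targeted genes were checked first. SEU had 4.73, 5.22 and 4.19 FPKM in seu-3 libraries, 13.3, 13.3 and 12.998 FPKM in wox5-1 libraries and 18.7, 13.3 and 13.2 FPKM in Col-0 libraries. WOX5 was listed at 0.0884, 0 and 0 FPKM in seu-3 libraries, at 0 in each of the wox5-1 libraries, and at 0.301, 0.461 and 0.524 FPKM in Col-0 libraries. Changes are differences of the mean log2(FPKM + 1), a scale that understates the change of weakly expressed genes, and were tested with limma over the 17062 genes that averaged 1 FPKM or more. A gene was called at an adjusted p below 0.05. The labels do not say whether the libraries of a genotype came from separate sowings, so the p-values measure the spread between these libraries, which may be technical.

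In seu-3 root tips the replication genes were lower than in Col-0 throughout the set, and in wox5-1 root tips their means were higher than in Col-0. Summed over the 44 genes, the level was 190, 239 and 136 FPKM in seu-3 libraries, 584, 452 and 446 FPKM in wox5-1 libraries and 339, 321 and 344 FPKM in Col-0 libraries. The 3 genotypes did not overlap in this sum. Per gene, the seu-3 mean was between 0.266 (CDT1B) and 0.795 (TK1A) of the Col-0 mean, with a median of 0.539. The wox5-1 mean was between 1.09 (CDC6) and 2.46 (ORC1A) of the Col-0 mean, with a median of 1.44. In bulk tissue fewer replicating cells and less of these transcripts per cell cannot be told apart.

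**Figure D1:**
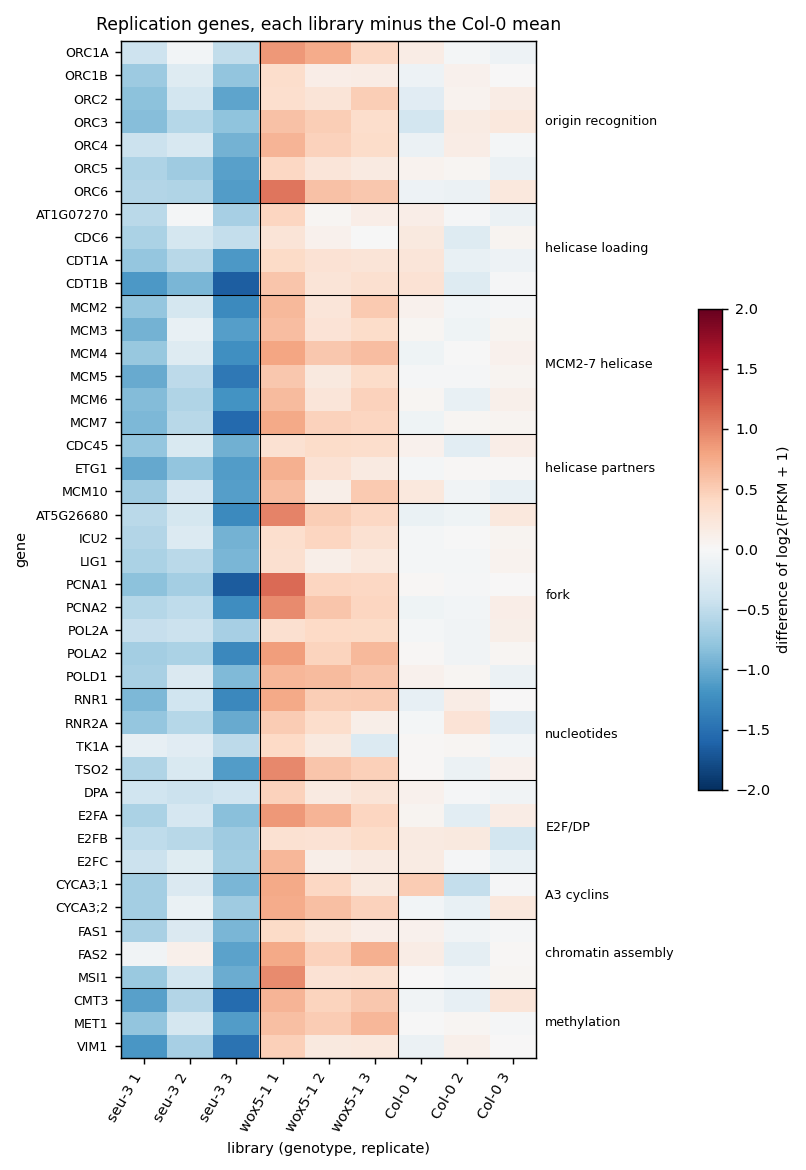
Each row is 1 of the 44 genes and each column 1 library, 3 of seu-3, 3 of wox5-1 and 3 of Col-0. Colour is the library's log2(FPKM + 1) minus the Col-0 mean of that gene. The seu-3 columns are below the Col-0 mean almost throughout, deepest in replicate 3, and the wox5-1 columns are above it apart from a few cells, such as TK1A in replicate 3.

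The 2 genes with a mean below 1 FPKM over the 9 libraries, ORC1A and AT1G07270, were outside the test, which left 42. CDT1B, ORC2, ORC3, ORC5 and POL2A averaged 0.938, 0.982, 0.713, 0.939 and 0.993 FPKM in seu-3 and passed the filter through the other genotypes. Their calls in seu-3 rest on values near the floor. Between seu-3 and Col-0, 38 of these 42 fell, 0 rose and 4 did not pass, where 34.2% of all tested genes fell and 6.66% rose. The 4 that did not pass were E2FC, CYCA3;1, TK1A and FAS2. The 3 seu-3 libraries lay below all 3 Col-0 libraries for 39 of the 42 genes, as they did for 44.8% of all tested genes (11.5% lay above). The median change of the 42 genes was -0.73, beside -0.24 for all tested genes, a difference of -0.48. All 42 had a lower mean in seu-3, as 72.2% of all tested genes did. Called with a fall of at least 1 log2 unit were 5 genes, CDT1B, VIM1, CMT3, PCNA1 and MCM7. Of all tested genes 8.18% were called with such a fall, and 1.08% with a rise of that size.

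The number of calls in seu-3 depends on how libraries are scaled. In seu-3 libraries the 100 most abundant genes held 28.0% to 31.2% of all FPKM, against 20.8% to 21.7% in wox5-1 and 22.5% to 22.8% in Col-0. A larger share for those genes lowers the FPKM of the rest, and its part in the calls in seu-3 was not tested. Over all tested genes 1136 rose and 5830 fell as deposited, 3191 rose and 2916 fell with median-ratio scaling, and 2280 rose and 2350 fell with quantile normalization. With median-ratio scaling 20 of the 42 replication genes fell, where 17.1% of all tested genes fell. With quantile normalization 12 of the 42 fell, where 13.8% of all tested genes fell. Neither scaling gave a rise, and the median change was -0.50 with median-ratio scaling and -0.36 with quantile normalization, beside 0.01 and 0.03 for all tested genes. All 42 genes had a lower mean in seu-3 with median-ratio scaling and 41 with quantile normalization, which put FAS2 at 0.05. The 12 genes that fell under both scalings were MCM5, MCM6, MCM7, ETG1, ORC5, CDT1A, CDT1B, PCNA1, POLA2, LIG1, VIM1 and CMT3. Without seu-3 replicate 3 the count of 38 became 23 of 44 tested, where 22.7% of all tested genes fell. Without Col-0 replicate 3 it became 24 of 43 tested, where 24.1% of all tested genes fell. In all 9 fits that each left out 1 library 21 of the 38 were called. Of all tested genes 22.7% to 34.8% fell in the single fits, and the share that fell in all 9 was not counted. Among the 38, those not given by library further on that lost the call in some of these fits were MCM3, MCM10, ORC2, ORC4, E2FB, ICU2 and AT5G26680, at adjusted p from 0.0506 (ORC2) to 0.121 (AT5G26680).

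Between wox5-1 and Col-0, 9 of the 42 genes rose, 0 fell and 33 did not pass, where 13.7% of all tested genes rose and 13.5% fell. The 9 were ORC6, MCM4, E2FA, CYCA3;2, PCNA2, POLA2, POLD1, TSO2 and MET1. All 42 had a higher mean in wox5-1, as 54.4% of all tested genes did. The 3 wox5-1 libraries lay above all 3 Col-0 libraries for 35 of the 42, against 30.2% of all tested genes (19.9% lay below). The median change was 0.43, beside 0.05 for all tested genes. None of the 42 changed by 1 log2 unit. Of all tested genes 1.17% were called with a rise of at least 1 log2 unit, and 3.05% with such a fall. The count of 9 changed when single libraries were left out, which also leaves fewer libraries to test. The median change stayed between 0.37 and 0.48 in the fits without a Col-0 or wox5-1 library. Leaving out Col-0 replicate 1, 2 or 3 gave 1, 0 and 3 genes, which is 2.38%, 0% and 6.98% of those tested, beside 5.9%, 3.08% and 7.92% of all genes. Leaving out wox5-1 replicate 1, 2 or 3 gave 0, 4 and 5 genes, which is 0%, 9.52% and 11.9%, beside 3.08%, 10.6% and 8.39% of all genes. In 5 of these 6 fits the share was thus below that of all genes. Leaving out seu-3 replicate 1, 2 or 3 gave 6, 15 and 19 genes, which is 13.6%, 34.9% and 43.2%, beside 9.5%, 17.4% and 19.1% of all genes. The seu-3 libraries enter this comparison through the estimate of spread and the filter on low values. A fit of only the 6 libraries compared gave 18 genes, or 42.9%, beside 18.1% of all genes.

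The direct comparison of seu-3 with wox5-1 gave the largest differences. Of the 42 genes 41 fell in seu-3 relative to wox5-1 and 0 rose, where 44.6% of all tested genes fell and 19.9% rose. TK1A, thymidine kinase, was the 1 gene that did not pass (-0.42, SE 0.17, adjusted p = 0.0541), though it did without wox5-1 replicate 3 (adjusted p = 0.00589). The libraries of the genotypes did not overlap for 41 of the 42, against 48.6% of all tested genes (22.3% lay above). Called with a fall of at least 1 log2 unit were 31 genes, against 19.3% of all tested genes. The median change was -1.18 beside -0.27 for all tested genes. The seu-3 mean was a median 0.360 of the wox5-1 mean over the 44 genes, with CDT1B the lowest at 0.194 and TK1A the highest at 0.717. All 41 were also called without each of the 9 libraries in turn. In the single fits 40.2% to 44.6% of all tested genes fell, and the share that fell in all 9 was not counted. The count was 40 with median-ratio scaling, where 31.5% of all tested genes fell and 33.1% rose. It was 36 with quantile normalization, where 29.5% fell and 31% rose. These 3 comparisons share libraries, so a low Col-0 value, for example, moves both comparisons with Col-0.

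**Figure D2:**
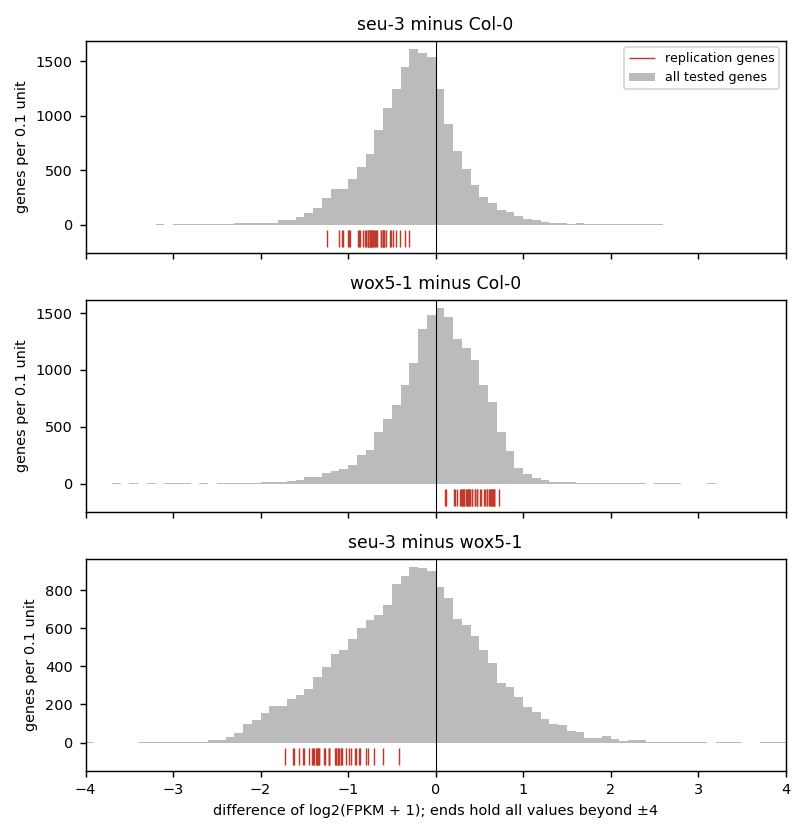
Each panel is 1 comparison. Grey bars count all 17062 tested genes by their difference of log2(FPKM + 1) in steps of 0.1, and each red mark under the bars is 1 of the 42 tested replication genes. The marks lie on the right of 0 for wox5-1 minus Col-0 and on the left for seu-3 minus Col-0 and seu-3 minus wox5-1.

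The replicative helicase is a ring of 6 related subunits, MCM2 to MCM7, that unwinds DNA at the fork. All 6 fell in seu-3 relative to Col-0 (changes of -0.73 to -1.005) and relative to wox5-1 (-1.15 to -1.56), and 1 of the 6, MCM4, rose in wox5-1. MCM7 (AT4G02060, also known as PROLIFERA) had 4.51, 5.995 and 2.51 FPKM in seu-3 libraries, 16.5, 13.3 and 12.9 FPKM in wox5-1 libraries and 8.73, 9.56 and 9.64 FPKM in Col-0 libraries. The 3 genotypes did not overlap. MCM7 changed by -1.005 in seu-3 relative to Col-0 (SE 0.22, adjusted p = 0.00772) and by 0.55 in wox5-1, which did not pass (adjusted p = 0.0833) except without seu-3 replicate 2 (adjusted p = 0.0432) or seu-3 replicate 3 (adjusted p = 0.0168). MCM6 (AT5G44635) had 1.65, 2.15 and 1.09 FPKM in seu-3 libraries, 6.47, 4.65 and 5.61 FPKM in wox5-1 libraries and 3.96, 3.35 and 4.14 FPKM in Col-0 libraries. Here too every seu-3 library was below and every wox5-1 library above all Col-0 libraries. MCM6 changed by -0.89 in seu-3 (SE 0.17, adjusted p = 0.00563) and by 0.44 in wox5-1 (adjusted p = 0.0816, and 0.0470 without seu-3 replicate 3). MCM4 (AT2G16440) had 2.77, 4.31 and 1.73 FPKM in seu-3 libraries, 10.1, 8.31 and 8.75 FPKM in wox5-1 libraries and 5.00, 5.35 and 5.80 FPKM in Col-0 libraries. It changed by 0.65 in wox5-1 (SE 0.21, adjusted p = 0.0469), a call kept only without seu-3 replicate 2 or seu-3 replicate 3 among the 9 fits that each left out 1 library, with adjusted p from 0.0653 to 0.153 in the other 7. Its fall in seu-3 (-0.75, SE 0.21, adjusted p = 0.0198) was lost when Col-0 replicate 2 (adjusted p = 0.0528), Col-0 replicate 3 (adjusted p = 0.0626), seu-3 replicate 1 (adjusted p = 0.0533) or seu-3 replicate 3 (adjusted p = 0.05003) was left out, and with median-ratio scaling (adjusted p = 0.0623).

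The ends of the order of subunits were the same in each genotype, and the order between them was not. MCM7 was the highest and MCM6 the lowest of the 6 in all 9 libraries. The ratio of the highest to the lowest was 2.61 ± 0.268 in seu-3, 2.57 ± 0.275 in wox5-1 and 2.46 ± 0.343 in Col-0 (SD, n = 3 each). Between these ends MCM2, MCM3, MCM4 and MCM5 had means of 2.93 to 3.52 FPKM in seu-3, 8.65 to 9.51 FPKM in wox5-1 and 5.39 to 6.56 FPKM in Col-0, and neighbours among them differed by less than the spread between libraries in seu-3 and wox5-1.

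**Figure D3:**
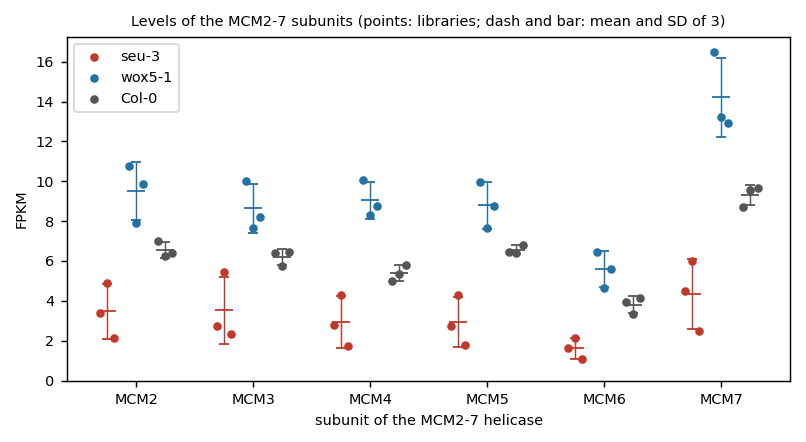
FPKM of the 6 helicase subunits, with seu-3, wox5-1 and Col-0 side by side for each. Points are libraries, and the dash and bar are the mean and SD of 3. MCM7 is the highest and MCM6 the lowest in each genotype, and the 3 groups of points separate for every subunit.

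The 3 helicase activation factors act when the loaded ring becomes an active helicase or binds to it: CDC45, a component of that helicase, MCM10, an initiation factor, and ETG1, an MCM-binding protein first known as an E2F target. All 3 fell in seu-3 relative to both other genotypes and none passed in wox5-1 relative to Col-0. ETG1 (AT2G40550) had 1.67, 2.14 and 1.51 FPKM in seu-3 libraries, 7.92, 5.62 and 5.18 FPKM in wox5-1 libraries and 4.28, 4.51 and 4.51 FPKM in Col-0 libraries. Its change in seu-3 relative to Col-0 was -0.98 (SE 0.16, adjusted p = 0.00368), the smallest adjusted p of the 42 genes in that comparison, and its change relative to wox5-1 was -1.37 (SE 0.16, adjusted p = 0.000140). The groups did not overlap. CDC45 (AT3G25100) had 1.01, 1.77 and 0.747 FPKM in seu-3 libraries, 3.22, 3.39 and 3.37 FPKM in wox5-1 libraries and 2.61, 1.95 and 2.74 FPKM in Col-0 libraries. The wox5-1 libraries were close together and just above the highest Col-0 library, and the seu-3 libraries were all lower than the lowest. CDC45 changed by -0.68 in seu-3 relative to Col-0 (SE 0.18, adjusted p = 0.0165), a call lost when Col-0 replicate 3 (adjusted p = 0.0578), seu-3 replicate 1 (adjusted p = 0.0535) or seu-3 replicate 3 (adjusted p = 0.0571) was left out, and with quantile normalization (adjusted p = 0.196). MCM10 averaged 3.51 ± 1.18 FPKM in seu-3, 8.78 ± 1.71 FPKM in wox5-1 and 6.29 ± 0.951 FPKM in Col-0.

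ORC binds origins as a complex of 6 subunits, and the first subunit has a pair of genes, ORC1A and ORC1B. Of the 6 ORC genes tested all fell in seu-3 relative to Col-0 (-0.57 to -0.81) and to wox5-1 (-0.80 to -1.50), and ORC6 rose in wox5-1 relative to Col-0. ORC6 (AT1G26840) had 3.89, 3.86 and 2.38 FPKM in seu-3 libraries, 14.4, 10.004 and 9.74 FPKM in wox5-1 libraries and 5.89, 5.81 and 7.50 FPKM in Col-0 libraries. The 3 genotypes did not overlap, and the rise of 0.73 in wox5-1 (SE 0.19, adjusted p = 0.0259) was the largest among the 42 genes. That call was lost when Col-0 replicate 1 (adjusted p = 0.0695), Col-0 replicate 2 (adjusted p = 0.0889) or wox5-1 replicate 1 (adjusted p = 0.0955) was left out. In seu-3 ORC6 changed by -0.77 relative to Col-0 (SE 0.19, adjusted p = 0.0127), a call lost with quantile normalization (adjusted p = 0.129). ORC5 (AT4G29910) had 1.18, 1.06 and 0.577 FPKM in seu-3 libraries, 3.46, 2.99 and 2.80 FPKM in wox5-1 libraries and 2.54, 2.45 and 2.10 FPKM in Col-0 libraries. It changed by -0.81 in seu-3 relative to Col-0 (SE 0.16, adjusted p = 0.00550) and by 0.28 in wox5-1 (adjusted p = 0.193). ORC2, ORC3 and ORC4 averaged 0.982, 0.713 and 2.48 FPKM in seu-3, 3.22, 2.98 and 6.23 FPKM in wox5-1 and 2.29, 1.90 and 4.09 FPKM in Col-0.

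ORC1A and ORC1B differed in their levels across the genotypes. ORC1A (AT4G14700) had 0.293, 0.653 and 0.219 FPKM in seu-3 libraries, 2.15, 1.89 and 1.30 FPKM in wox5-1 libraries and 0.901, 0.671 and 0.603 FPKM in Col-0 libraries. The wox5-1 libraries stood above all others, while 1 seu-3 library lay inside the Col-0 range. ORC1B (AT4G12620) had 1.26, 2.15 and 1.17 FPKM in seu-3 libraries, 3.80, 3.11 and 3.13 FPKM in wox5-1 libraries and 2.49, 2.98 and 2.77 FPKM in Col-0 libraries. ORC1B fell in seu-3 relative to Col-0 (-0.59, SE 0.17, adjusted p = 0.0196) and its difference in wox5-1 was 0.21 (adjusted p = 0.339). The fall was lost when Col-0 replicate 2 (adjusted p = 0.0645), Col-0 replicate 3 (adjusted p = 0.0548), seu-3 replicate 1 (adjusted p = 0.0681) or seu-3 replicate 3 (adjusted p = 0.0693) was left out, and with median-ratio scaling (adjusted p = 0.0731). With no filter on low values ORC1A rose by 0.68 in wox5-1 relative to Col-0 (adjusted p = 0.0258), and changed by -0.32 in seu-3 relative to Col-0 (adjusted p = 0.158). The ratio of ORC1B to ORC1A was 4.31 ± 1.02 in seu-3, 1.94 ± 0.410 in wox5-1 and 3.94 ± 1.02 in Col-0, and its highest value in wox5-1, 2.41, was below its lowest in Col-0, 2.76. The 2 transcripts are 89.6% identical over 2459 aligned bases, with an identical run of 71 bases, and ORC1A shares 32.6% of its exon bases with a non-coding gene on the opposite strand, so their fragments may have been divided between genes. The part of these overlaps in the ratio was not tested.

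CDC6 and CDT1 load the MCM ring onto origins, and each is encoded by a pair of genes, CDC6 (AT2G29680) with AT1G07270, annotated as a CDC6 protein, and CDT1A with CDT1B. The 3 genes tested fell in seu-3 relative to both other genotypes and none passed in wox5-1 relative to Col-0. CDT1A (AT2G31270) had 9.89, 11.7 and 7.48 FPKM in seu-3 libraries, 23.3, 21.8 and 21.4 FPKM in wox5-1 libraries and 21.2, 15.8 and 16.5 FPKM in Col-0 libraries. CDT1B (AT3G54710) had 1.02, 1.37 and 0.424 FPKM in seu-3 libraries, 5.57, 4.33 and 4.60 FPKM in wox5-1 libraries and 4.45, 2.73 and 3.39 FPKM in Col-0 libraries. For both genes every seu-3 library was below every Col-0 library, and for CDT1B the wox5-1 and Col-0 libraries overlapped. CDT1A changed by -0.83 in seu-3 relative to Col-0 (SE 0.16, adjusted p = 0.00544) and by 0.31 in wox5-1 (adjusted p = 0.164). CDT1B changed by -1.24 in seu-3 (SE 0.21, adjusted p = 0.00436), the largest change of the 42 genes in that comparison, and by 0.38 in wox5-1 (adjusted p = 0.190). Its seu-3 mean of 0.938 FPKM was below the filter, which CDT1B passed through the other genotypes. CDT1A was the more abundant of the pair in every library, and the ratio of CDT1A to CDT1B was 11.96 ± 4.96 in seu-3, 4.62 ± 0.428 in wox5-1 and 5.14 ± 0.561 in Col-0. Its lowest value in seu-3, 8.56, was above its highest in Col-0, 5.79.

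In the CDC6 pair, CDC6 itself passed the filter on low values. It had 2.75, 3.54 and 3.16 FPKM in seu-3 libraries, 5.96, 5.12 and 4.78 FPKM in wox5-1 libraries and 5.67, 3.84 and 5.03 FPKM in Col-0 libraries. The seu-3 libraries were all lower than the others, and the wox5-1 and Col-0 libraries overlapped. CDC6 changed by -0.49 in seu-3 relative to Col-0 (SE 0.15, adjusted p = 0.0283) and by 0.11 in wox5-1 (adjusted p = 0.578). The fall was lost when Col-0 replicate 1 (adjusted p = 0.0899), Col-0 replicate 3 (adjusted p = 0.0821), seu-3 replicate 1 (adjusted p = 0.0953) or seu-3 replicate 3 (adjusted p = 0.0655) was left out, and with median-ratio scaling (adjusted p = 0.191). AT1G07270 had 0.393, 0.975 and 0.278 FPKM in seu-3 libraries, 1.72, 1.07 and 1.22 FPKM in wox5-1 libraries and 1.22, 0.986 and 0.871 FPKM in Col-0 libraries. With no filter its change was -0.41 in seu-3 relative to Col-0 (adjusted p = 0.117) and 0.20 in wox5-1 (adjusted p = 0.445), and it fell by 0.61 in seu-3 relative to wox5-1 (adjusted p = 0.0197).

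E2FA and E2FB are activators of S phase genes, E2FC is a repressor, and DPA is a partner with which they bind DNA. In seu-3 relative to Col-0, 3 of the 4 fell and E2FC did not pass (-0.45, SE 0.18, adjusted p = 0.0662) except without seu-3 replicate 2 (adjusted p = 0.0467) or wox5-1 replicate 1 (adjusted p = 0.0376), and relative to wox5-1 all 4 fell. E2FA (AT2G36010) had 2.11, 2.80 and 1.69 FPKM in seu-3 libraries, 7.83, 6.71 and 5.53 FPKM in wox5-1 libraries and 4.03, 3.17 and 4.35 FPKM in Col-0 libraries. Every seu-3 library was below, and every wox5-1 library above, all Col-0 libraries. E2FA rose by 0.66 in wox5-1 (SE 0.17, adjusted p = 0.0251), a call lost when Col-0 replicate 1 (adjusted p = 0.0522), Col-0 replicate 2 (adjusted p = 0.0921) or wox5-1 replicate 1 (adjusted p = 0.0963) was left out. Its change in seu-3 was -0.61 relative to Col-0 (SE 0.17, adjusted p = 0.0212), lost when Col-0 replicate 1 (adjusted p = 0.0549), Col-0 replicate 3 (adjusted p = 0.0737), seu-3 replicate 1 (adjusted p = 0.0585) or seu-3 replicate 3 (adjusted p = 0.0739) was left out, and with median-ratio scaling (adjusted p = 0.0811). DPA (AT5G02470) had 7.25, 7.07 and 7.32 FPKM in seu-3 libraries, 13.98, 11.3 and 12.0 FPKM in wox5-1 libraries and 10.5, 9.65 and 9.39 FPKM in Col-0 libraries. Its seu-3 libraries were alike, unlike those of most of the 44 genes. DPA changed by -0.40 in seu-3 (SE 0.11, adjusted p = 0.0156), a call lost with median-ratio scaling (-0.14, adjusted p = 0.344), and by 0.30 in wox5-1 (adjusted p = 0.0586).
The activator E2FB averaged 1.65 ± 0.197 FPKM in seu-3, 3.98 ± 0.153 FPKM in wox5-1 and 3.05 ± 0.845 FPKM in Col-0. The repressor E2FC averaged 4.19 ± 0.790, 7.92 ± 1.92 and 6.08 ± 0.809 FPKM in seu-3, wox5-1 and Col-0, and was above E2FA in every library but 1 of wox5-1: the ratio of E2FA to E2FC was 0.521 ± 0.0392 in seu-3, 0.859 ± 0.134 in wox5-1 and 0.642 ± 0.151 in Col-0.

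CYCA3;1 and CYCA3;2 are A-type cyclins of the G1 to S phase class. CYCA3;2 (AT1G47210) had 8.20, 12.4 and 7.96 FPKM in seu-3 libraries, 23.6, 21.3 and 19.3 FPKM in wox5-1 libraries and 13.1, 12.2 and 16.0 FPKM in Col-0 libraries. All wox5-1 libraries were above the others, while seu-3 replicate 2 lay inside the Col-0 range. The cyclin rose by 0.61 in wox5-1 relative to Col-0 (SE 0.17, adjusted p = 0.0310), a call lost when Col-0 replicate 1 (adjusted p = 0.0772), Col-0 replicate 2 (adjusted p = 0.106), wox5-1 replicate 1 (adjusted p = 0.110) or wox5-1 replicate 2 (adjusted p = 0.0571) was left out. Its change of -0.51 in seu-3 (SE 0.17, adjusted p = 0.0391) was kept only without seu-3 replicate 2, wox5-1 replicate 1 or wox5-1 replicate 3 among the 9 fits that left out 1 library, with adjusted p from 0.0525 to 0.132 in the other 6, and was lost with median-ratio scaling (adjusted p = 0.244). CYCA3;1 (AT5G43080) had 1.46, 2.23 and 1.09 FPKM in seu-3 libraries, 5.65, 4.24 and 3.52 FPKM in wox5-1 libraries and 4.61, 1.82 and 2.86 FPKM in Col-0 libraries. Its Col-0 libraries were spread over both mutants' ranges. It did not pass in seu-3 (-0.63, SE 0.27, adjusted p = 0.0839, and 0.0365 without Col-0 replicate 2) or in wox5-1 (0.45, SE 0.27, adjusted p = 0.208) relative to Col-0, and fell by 1.08 in seu-3 relative to wox5-1 (SE 0.27, adjusted p = 0.00552).

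**Figure D4:**
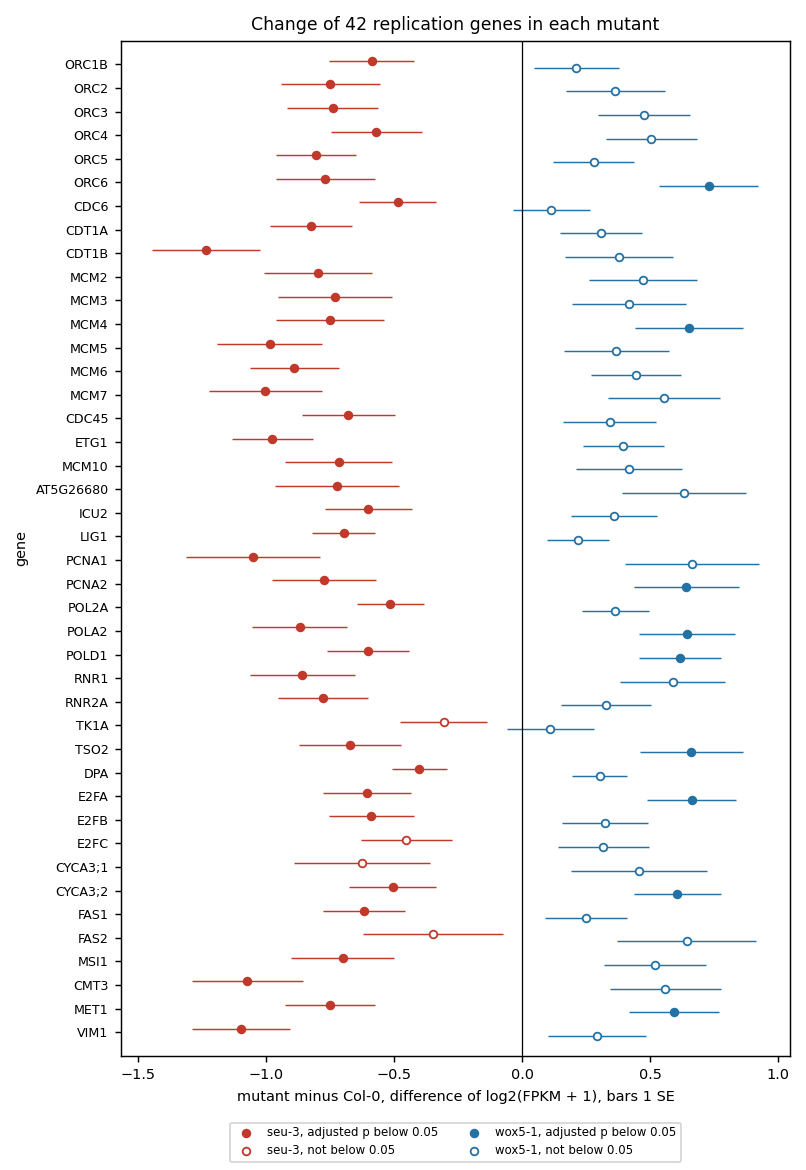
Difference of log2(FPKM + 1) from Col-0 for each of the 42 tested genes, in seu-3 and in wox5-1, with bars of 1 SE. Filled points have an adjusted p below 0.05. All seu-3 points are below 0 and all wox5-1 points above it, and 38 and 9 of them are filled.

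At the fork, PCNA is the clamp that holds polymerases on DNA, ICU2 and POLA2 are subunits of polymerase alpha, POLD1 (AT5G63960) and POL2A the catalytic subunits of polymerases delta and epsilon, and LIG1 a DNA ligase. AT5G26680 is annotated as a member of the 5′-3′ exonuclease family. All 8 fork genes fell in seu-3 relative to Col-0 (-0.52 to -1.05), and 3 of them, PCNA2, POLA2 and POLD1, rose in wox5-1. PCNA1 (AT1G07370) had 13.5, 15.1 and 7.16 FPKM in seu-3 libraries, 55.8, 33.9 and 33.5 FPKM in wox5-1 libraries and 25.1, 24.5 and 24.8 FPKM in Col-0 libraries. PCNA2 (AT2G29570) had 12.3, 12.99 and 7.35 FPKM in seu-3 libraries, 37.1, 28.0 and 25.8 FPKM in wox5-1 libraries and 17.7, 18.1 and 20.9 FPKM in Col-0 libraries. The genotypes did not overlap for either gene, and the Col-0 libraries of PCNA1 were nearly equal. PCNA1 changed by -1.05 in seu-3 (SE 0.26, adjusted p = 0.0122) and by 0.66 in wox5-1, which did not pass (SE 0.26, adjusted p = 0.0817) except without seu-3 replicate 3 (adjusted p = 0.0247). PCNA2 changed by -0.78 in seu-3 (SE 0.20, adjusted p = 0.0153), a call lost without Col-0 replicate 3 (adjusted p = 0.0539) and with median-ratio scaling (adjusted p = 0.0602). It rose by 0.64 in wox5-1 (SE 0.20, adjusted p = 0.0446), a call kept only without seu-3 replicate 2 or seu-3 replicate 3, with adjusted p from 0.0504 to 0.159 without each of the other 7 libraries. The ratio of PCNA1 to PCNA2 was 1.08 ± 0.0976 in seu-3, 1.34 ± 0.1503 in wox5-1 and 1.32 ± 0.116 in Col-0. Its highest value in seu-3, 1.17, was just below its lowest in Col-0, 1.19. The pair is 85.7% identical over 788 aligned bases, and PCNA2 shares 23.6% of its exon bases with ENOC on the opposite strand, so both values are uncertain by what was assigned to the other gene.

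POLA2 (AT1G67630) had 1.93, 2.01 and 0.908 FPKM in seu-3 libraries, 7.35, 5.40 and 6.34 FPKM in wox5-1 libraries and 3.78, 3.45 and 3.82 FPKM in Col-0 libraries. The groups did not overlap. It changed by -0.87 in seu-3 relative to Col-0 (SE 0.19, adjusted p = 0.00716) and rose by 0.64 in wox5-1 (SE 0.19, adjusted p = 0.0336), the rise being lost when Col-0 replicate 1 (adjusted p = 0.0708), Col-0 replicate 2 (adjusted p = 0.103), Col-0 replicate 3 (adjusted p = 0.0657), wox5-1 replicate 1 (adjusted p = 0.124) or wox5-1 replicate 3 (adjusted p = 0.0689) was left out. LIG1 (AT1G08130) had 6.29, 6.73 and 4.96 FPKM in seu-3 libraries, 13.2, 11.2 and 12.1 FPKM in wox5-1 libraries and 10.02, 10.02 and 10.8 FPKM in Col-0 libraries. The ligase changed by -0.70 in seu-3 (SE 0.12, adjusted p = 0.00447) and by 0.22 in wox5-1 (adjusted p = 0.191). The polymerase genes were at low levels: POLD1 averaged 1.47 ± 0.519 FPKM in seu-3, 4.68 ± 0.202 FPKM in wox5-1 and 2.71 ± 0.252 FPKM in Col-0, ICU2 averaged 1.36, 3.52 and 2.52 FPKM and POL2A 0.993, 2.66 and 1.85 FPKM in the same order of genotypes. POLD1 rose by 0.62 in wox5-1 (SE 0.16, adjusted p = 0.0238), the smallest adjusted p of the 42 genes there. That rise was lost when Col-0 replicate 2 (adjusted p = 0.0682), Col-0 replicate 3 (adjusted p = 0.0640) or wox5-1 replicate 1 (adjusted p = 0.0806) was left out, and its fall in seu-3 (-0.60, SE 0.16, adjusted p = 0.0155) without seu-3 replicate 3 (adjusted p = 0.0518) and with median-ratio scaling (adjusted p = 0.0552).

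Ribonucleotide reductase makes deoxynucleotides from a large subunit, RNR1, and small subunits, TSO2 and RNR2A, and TK1A is a thymidine kinase of the salvage route. The 3 reductase genes fell in seu-3 relative to both other genotypes, TSO2 rose in wox5-1, and TK1A did not pass in any comparison. TSO2 (AT3G27060) was the most abundant of the 44 genes in each genotype, with 29.7, 36.8 and 20.5 FPKM in seu-3 libraries, 89.3, 67.6 and 63.4 FPKM in wox5-1 libraries and 46.5, 41.8 and 48.5 FPKM in Col-0 libraries. The genotypes did not overlap. TSO2 changed by -0.67 in seu-3 relative to Col-0 (SE 0.20, adjusted p = 0.0245), a call lost when Col-0 replicate 1 (adjusted p = 0.0569), Col-0 replicate 3 (adjusted p = 0.0744), seu-3 replicate 1 (adjusted p = 0.0520) or seu-3 replicate 3 (adjusted p = 0.0706) was left out, and with median-ratio scaling (adjusted p = 0.116). It rose by 0.66 in wox5-1 (SE 0.20, adjusted p = 0.0378), a call kept only without seu-3 replicate 2, seu-3 replicate 3 or wox5-1 replicate 3, with adjusted p from 0.0547 to 0.138 without each of the other 6 libraries. RNR1 (AT2G21790) had 4.82, 7.23 and 3.42 FPKM in seu-3 libraries, 17.4, 14.3 and 14.3 FPKM in wox5-1 libraries and 8.69, 10.9 and 9.91 FPKM in Col-0 libraries. RNR1 changed by -0.86 in seu-3 (SE 0.20, adjusted p = 0.0104), lost with quantile normalization (adjusted p = 0.0531), and by 0.59 in wox5-1 (SE 0.20, adjusted p = 0.0573), which passed without seu-3 replicate 2 (adjusted p = 0.0215) or seu-3 replicate 3 (adjusted p = 0.0224).
RNR2A (AT3G23580) had 2.13, 2.61 and 1.66 FPKM in seu-3 libraries, 6.59, 5.85 and 4.78 FPKM in wox5-1 libraries and 4.19, 5.43 and 3.55 FPKM in Col-0 libraries. The seu-3 libraries were the lowest, and wox5-1 and Col-0 overlapped. RNR2A changed by -0.78 in seu-3 (SE 0.18, adjusted p = 0.00863) and by 0.33 in wox5-1 (adjusted p = 0.176). TSO2 exceeded RNR2A in every library, by a ratio of 13.4 ± 0.967 in seu-3, 12.8 ± 1.08 in wox5-1 and 10.8 ± 2.99 in Col-0, and exceeded RNR1 by 5.75 ± 0.574, 4.77 ± 0.353 and 4.69 ± 0.786 in seu-3, wox5-1 and Col-0. TK1A averaged 8.23 ± 1.18 FPKM in seu-3, 11.5 ± 2.81 FPKM in wox5-1 and 10.4 ± 0.396 FPKM in Col-0, the smallest relative difference between the mutants among the 44 genes.

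FAS1, FAS2 and MSI1 form chromatin assembly factor CAF-1, which places new histones H3 and H4 on copied DNA, and MSI1 is also part of Polycomb complexes. Of the 3 genes FAS1 and MSI1 fell in seu-3 relative to Col-0, all 3 fell relative to wox5-1, and none passed in wox5-1 relative to Col-0. MSI1 (AT5G58230) had 10.9, 14.4 and 8.96 FPKM in seu-3 libraries, 37.4, 23.4 and 23.7 FPKM in wox5-1 libraries and 18.97, 18.2 and 19.4 FPKM in Col-0 libraries. FAS1 (AT1G65470) had 3.16, 4.31 and 2.44 FPKM in seu-3 libraries, 7.44, 6.63 and 6.17 FPKM in wox5-1 libraries and 5.94, 5.18 and 5.42 FPKM in Col-0 libraries. Neither gene overlapped between genotypes. FAS1 changed by -0.62 in seu-3 relative to Col-0 (SE 0.16, adjusted p = 0.0144), a call lost with median-ratio scaling (adjusted p = 0.0637). MSI1 changed by -0.70 (SE 0.20, adjusted p = 0.0211), a call lost when Col-0 replicate 2 (adjusted p = 0.0502), Col-0 replicate 3 (adjusted p = 0.0605), seu-3 replicate 1 (adjusted p = 0.0597) or seu-3 replicate 3 (adjusted p = 0.0754) was left out, and with median-ratio scaling (adjusted p = 0.0994). FAS2 (AT5G64630) had 1.97, 2.37 and 0.497 FPKM in seu-3 libraries, 4.28, 3.31 and 4.15 FPKM in wox5-1 libraries and 2.49, 1.77 and 2.19 FPKM in Col-0 libraries. Its low seu-3 mean rests on replicate 3, and its change of -0.35 relative to Col-0 (SE 0.27, adjusted p = 0.327) was 0.01 without that library.

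MET1 is the methyltransferase that maintains CG methylation, VIM1 binds hemimethylated DNA and is needed for that maintenance, and CMT3 maintains methylation of CHG sites. All 3 fell in seu-3 relative to both other genotypes, and MET1 rose in wox5-1 relative to Col-0. VIM1 (AT1G57820) had 3.62, 5.58 and 2.75 FPKM in seu-3 libraries, 13.4, 10.8 and 11.02 FPKM in wox5-1 libraries and 8.62, 10.2 and 9.41 FPKM in Col-0 libraries. CMT3 (AT1G69770) had 4.60, 6.92 and 3.11 FPKM in seu-3 libraries, 18.2, 15.3 and 16.4 FPKM in wox5-1 libraries and 10.4, 9.62 and 13.1 FPKM in Col-0 libraries. Every seu-3 library of both genes was below every Col-0 library, and every wox5-1 library above. VIM1 changed by -1.10 in seu-3 relative to Col-0 (SE 0.19, adjusted p = 0.00444) and by 0.29 in wox5-1 (adjusted p = 0.258). CMT3 changed by -1.07 in seu-3 (SE 0.22, adjusted p = 0.00591) and by 0.56 in wox5-1, which did not pass (adjusted p = 0.0783) except without seu-3 replicate 2 (adjusted p = 0.0311) or seu-3 replicate 3 (adjusted p = 0.0302). MET1 averaged 2.31 ± 0.888 FPKM in seu-3, 7.21 ± 0.421 FPKM in wox5-1 and 4.45 ± 0.126 FPKM in Col-0. Its rise of 0.59 in wox5-1 (SE 0.18, adjusted p = 0.0363) was kept only without seu-3 replicate 2 or seu-3 replicate 3, with adjusted p from 0.0544 to 0.106 without each of the other 7 libraries.

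The seu-3 libraries were not alike. Replicate 3 was the lowest of the 3 for 41 of the 44 genes and replicate 2 the highest for 39. The share of all tested genes in that order was not counted. Their median log2(FPKM + 1) was 3.35, 3.42 and 3.23 in seu-3 replicates 1, 2 and 3, so genes at large were also lowest in replicate 3. The median coefficient of variation of the 42 tested replication genes was 33.8% in seu-3, 13.2% in wox5-1 and 10.1% in Col-0. It was 13.3%, 13.8% and 11.2% over all tested genes in the same genotypes. The number of the 44 genes below all 3 Col-0 libraries was 43, 39 and 44 in seu-3 replicates 1, 2 and 3, where 57.5%, 54.5% and 61% of all tested genes were. The number above all 3 Col-0 libraries was 44, 38 and 39 in wox5-1 replicates 1, 2 and 3, where 43.8%, 41.6% and 40.8% of all tested genes were. In wox5-1, replicate 1 was the highest of the 3 for 38 of the 44 genes. The median log2(FPKM + 1) of all tested genes was 3.64, 3.66 and 3.65 in wox5-1 replicates 1, 2 and 3. Among Col-0 libraries no replicate was the highest for more than 20 of the 44.

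Genes with and without an E2F-type element near the start are set side by side here. The median change in seu-3 relative to Col-0 was -0.75 over the 15 tested genes with an element and -0.70 over the 27 without, and in wox5-1 it was 0.48 and 0.38. In seu-3 relative to wox5-1 it was -1.27 and -1.13. These are descriptions of the chosen genes and were not tested.

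A further list of 38 genes of replication outside the 44, with replication factors A and C, GINS, other polymerase subunits and histone chaperones, had 34 genes tested. Of these 22 fell and 0 rose in seu-3 relative to Col-0, where 34.2% of all tested genes fell and 6.66% rose. In wox5-1 relative to Col-0 10 rose and 0 fell, where 13.7% of all tested genes rose and 13.5% fell. In seu-3 relative to wox5-1 34 fell, where 44.6% of all tested genes fell. The medians were -0.70, 0.49 and -1.23 in that order. ASF1B (AT5G38110), a chaperone of histones H3 and H4, had 6.98, 6.33 and 5.04 FPKM in seu-3 libraries, 21.8, 19.6 and 20.2 FPKM in wox5-1 libraries and 10.7, 10.01 and 10.2 FPKM in Col-0 libraries. It rose by 0.93 in wox5-1 (SE 0.12, adjusted p = 0.00180) and changed by -0.68 in seu-3 (SE 0.12, adjusted p = 0.00446) relative to Col-0. PSF3 (AT1G19080), of the GINS complex that joins CDC45 and the MCM ring, rose by 0.84 in wox5-1 (SE 0.12, adjusted p = 0.00292) and did not pass in seu-3 relative to Col-0 (-0.14, SE 0.12, adjusted p = 0.362). RFC5 (AT1G77470), of the loader of PCNA, changed by -1.08 in seu-3 relative to Col-0 (SE 0.17, adjusted p = 0.00327). The 5 genes of histone H3.1, the form deposited by CAF-1 during replication, all fell in seu-3 (-0.86 to -1.16) and all rose in wox5-1 (0.74 to 0.93) relative to Col-0. Their summed level was 269, 323 and 192 FPKM in seu-3, 1084, 755 and 800 FPKM in wox5-1 and 482, 477 and 531 FPKM in Col-0 libraries.

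In seu-3 relative to Col-0, median-ratio scaling gave a fall in 17 of the 34 further replication genes and 4 of the 5 H3.1 genes. Of all tested genes 17.1% fell with that scaling. With quantile normalization 9 and 4 fell, beside 13.8% of all tested genes. None rose with either scaling.

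Genes of mitosis and cytokinesis were also counted. Of 19 tested, 16 fell and 0 rose in seu-3 relative to Col-0, where 34.2% of all tested genes fell. In wox5-1 relative to Col-0 10 rose and 0 fell, where 13.7% of all tested genes rose. Medians were -1.04 and 0.71, beside -0.73 and 0.43 for the 42 replication genes. With median-ratio scaling 13 of the 19 fell in seu-3 relative to Col-0, where 17.1% of all tested genes fell. With quantile normalization 10 fell, where 13.8% of all tested genes fell, and none rose with either. The summed level of the 44 replication genes divided by that of the 19 mitosis genes was 2.95, 3.56 and 4.45 in seu-3 libraries, 2.27, 2.28 and 2.18 in wox5-1 libraries and 2.98, 2.70 and 2.31 in Col-0 libraries. The seu-3 libraries were all above the wox5-1 libraries and overlapped with Col-0. The mean ratio differed by 1.42 between seu-3 and wox5-1, by 0.99 between seu-3 and Col-0 and by -0.42 between wox5-1 and Col-0. An exact two-sided permutation test gave p = 0.1, 0.2 and 0.1 in that order. Adjusted over these 3 comparisons by Benjamini-Hochberg the p-values were 0.15, 0.2 and 0.15. With 3 libraries against 3 the smallest possible p was 0.1, above the threshold used for calls. The test therefore could not decide whether the ratio differs between genotypes. Both lists were also chosen with earlier results of these data known.

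Markers of cell types differed between lists in how they moved. The summed level of 8 genes of the root meristem and stem cell niche was 24.4, 33.1 and 18.3 FPKM in seu-3, 69.4, 57.5 and 60.5 FPKM in wox5-1 and 47.8, 47.1 and 46.6 FPKM in Col-0 libraries, the order of genotypes seen in the sum of the replication genes. SCR, PLT3 and SHR made up most of that sum. AGL42 ran the other way, with 1.62 ± 1.09 FPKM in seu-3, 0.323 ± 0.280 FPKM in wox5-1 and 1.30 ± 0.319 FPKM in Col-0 (SD, n = 3 each). It was called higher in seu-3 than in wox5-1 (0.93, SE 0.30, limma adjusted p = 0.0198). AGL42 passed the filter on low values only through seu-3 and Col-0, so that call rests on wox5-1 values near the floor. WOX5 was at 0 in all 3 wox5-1 libraries. Of the 6 tested, 4 fell and 0 rose in seu-3 and 2 rose and 0 fell in wox5-1 relative to Col-0. Of all tested genes 34.2% fell in seu-3 and 13.7% rose in wox5-1. The 4 root cap genes summed to 103 to 115 FPKM in seu-3, 38.8 to 50.1 FPKM in wox5-1 and 89.3 to 104 FPKM in Col-0. All 4 fell in wox5-1, where 13.5% of all tested genes fell. In seu-3 1 rose and 1 fell, where 6.66% of all tested genes rose and 34.2% fell. Of 10 genes of differentiated root hair, endodermis and xylem 9 were tested. In seu-3 relative to Col-0 1 rose and 0 fell, beside 6.66% and 34.2% of all tested genes. In wox5-1 0 rose and 2 fell, beside 13.7% and 13.5% of all tested genes. The 10 genes summed to 1934 to 2265 FPKM in seu-3, 1511 to 2152 FPKM in wox5-1 and 1947 to 2617 FPKM in Col-0 libraries, which overlap. The 5 genes of green tissue summed to 51.7 FPKM in wox5-1 replicate 3 and to 5.75 to 12.999 FPKM in the 8 other libraries, and all 5 were highest in that library. The 2 pollen genes summed to 6.08, 2.43 and 46.4 FPKM in wox5-1 libraries and were at 0 in all others. Both were called higher in wox5-1 than in Col-0, where 13.7% of all tested genes rose. They passed the filter on low values only through wox5-1, so these calls are no separate result. The part of these cell type differences in the levels of the replication genes was not tested. Without wox5-1 replicate 3 the median change of the 42 replication genes in wox5-1 relative to Col-0 was 0.44, beside 0.43 with it. The pollen genes were also present in wox5-1 replicates 1 and 2, so that fit does not remove their difference and does not test its part.

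**Figure D5:**
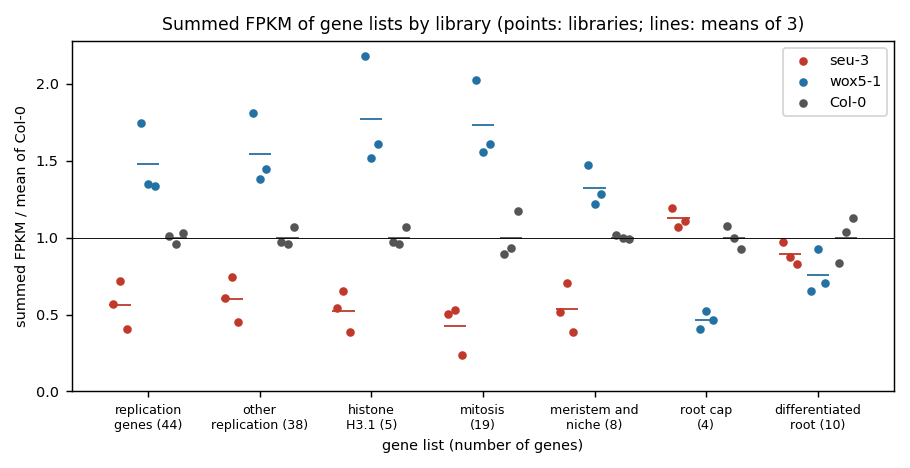
Summed FPKM of each gene list in each library, divided by the mean of the 3 Col-0 libraries, with seu-3, wox5-1 and Col-0 side by side. Points are libraries and lines are means of 3. The replication, histone H3.1, mitosis and meristem lists are below 1 in seu-3 and above 1 in wox5-1, and the root cap list is below 1 in wox5-1.

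The levels of the 44 genes in Col-0 spanned 0.725 FPKM (ORC1A) to 45.6 FPKM (TSO2), with a median of 5.12 FPKM, against 11.3 FPKM for all tested genes. The medians were 2.94 FPKM in seu-3 and 6.98 FPKM in wox5-1. Below 5 FPKM were 33 of the 44 in seu-3, 14 in wox5-1 and 22 in Col-0. The strand of the libraries is not given in the sources used here, and 14 of the 44 genes share exon bases with a neighbouring gene: MCM7, ETG1, ORC1A, ORC4, CDC6, E2FA, PCNA2, ICU2, POLD1, POL2A, AT5G26680, TSO2, RNR2A and MSI1. Over the 13 of these that were tested 13 fell in seu-3 relative to Col-0, with a median of -0.67, and over the 29 without such overlap 25 fell, with a median of -0.75. Of all tested genes 34.2% fell. POL2A is 89.1% identical over 6427 aligned bases to TIL2, a second polymerase epsilon gene, and CDC6 and AT1G07270 share an identical run of 71 bases.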

How the data were processed

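RNA from root tips of seu-3, wox5-1 and Col-0 seedlings was sequenced in 3 libraries per genotype. The authors deposited 1 table of FPKM per gene and library, and per the submitters' processing notes Bowtie, Cufflinks and the TAIR10 genome were used, with versions and settings not given in the sources used here. Raw counts were not analysed here, so no counting interval is given. FPKM were transformed to log2(FPKM + 1), genes averaging 1 FPKM or more were kept (17062 of 33560), and genotype was fitted over all 9 libraries with limma 3.58.1 in R 4.3.3 with a trended variance prior. P-values were adjusted by Benjamini-Hochberg over all genes tested. The fit was run on simulated data with known changes, in which genes varied independently. That run checks the code and does not give error rates for genes that vary together, as the replication genes did in seu-3. Python 3.11.15, pandas 2.3.3 and matplotlib 3.10.9 were used for summaries and figures, and BLAST 2.17.0 for identity between transcripts. Coordinates are those of TAIR10.1.

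The 44 genes and all lists were chosen with earlier results of these data known. Genes given by library were the 2 per functional class with the smallest p over the 3 genotypes, the pairs of related genes, those below the filter, and up to 4 further replication genes per comparison. MCM4, POLD1, MET1, FAS2, TK1A and E2FC were added for their calls, after their values were seen. The alternatives were another pseudocount, filter, scaling, variance prior, replicate block, quality weights, a fit of the 6 libraries compared, and each library left out.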

Additional observations from a re-analysis of the deposited data

How the results depend on the processing

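The count of replication genes that rose in wox5-1 relative to Col-0 was the least stable result: 9 as reported (21.4% of those tested, beside 13.7% of all genes), 5 with a pseudocount of 0.1 FPKM (11.9% beside 10.5%), 5 with no filter on low values (11.4% beside 7.77%), 5 of 22 with a mean of at least 5 FPKM (22.7% beside 14.2%), 14 with quantile normalization (33.3% beside 16.6%), 25 with sample quality weights (59.5% beside 23.7%), 18 with only the 6 libraries compared (42.9% beside 18.1%), and 0 to 19 with each library left out (0% beside 3.08%, to 43.2% beside 19.1%). The count that fell in seu-3 relative to Col-0 was 38 as reported (90.5% beside 34.2%), 20 of 22 with a mean of at least 5 FPKM (90.9% beside 33.5%), 20 with median-ratio scaling (47.6% beside 17.1%) and 12 with quantile normalization (28.6% beside 13.8%). With each library left out it was 23 to 39 (52.3% beside 22.7%, to 92.9% beside 34.2%). The count that fell in seu-3 relative to wox5-1 was 41 as reported (97.6% beside 44.6%) and 21 of 22 with a mean of at least 5 FPKM (95.5% beside 42.2%). The smaller counts at 5 FPKM follow from the fewer genes tested. For the other settings the cause was not tested. Median changes of the set kept their sign under every alternative run. Among single genes the sign turned, none of them called, for FAS2 in seu-3 relative to Col-0 with quantile normalization (0.0506) and, over the fits that each left out 1 library (-0.5725 to 0.0124), without seu-3 replicate 3. In wox5-1 relative to Col-0 it turned for TK1A with quality weights (-0.0197) and without wox5-1 replicate 1 (range -0.0333 to 0.2993), and for CDC6 without Col-0 replicate 2 (range -0.0166 to 0.2145). The genotypes share replicate numbers. Deviations of same-numbered libraries correlated at -0.26 to 0.19 over 9 pairs, and those of differently numbered libraries at -0.36 to 0.35 over 18 pairs. With the replicate number as a block, 3 genes rose in wox5-1 relative to Col-0 (7.14%, beside 8.39% of all genes, so no more often than genes at large) and 35 fell in seu-3 relative to Col-0 (83.3% beside 29.4%). Depth limits the weakest genes, below about 1 FPKM.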
